A study of Mus musculus with 18 samples.

Results

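In splenic T cells of ageing mice, 45 bins of 500 bp had a high capture of methylated DNA at 2 months and almost none at both 20 and 28 months. They were selected on 3 T-cell values: a normalized count of 30 or more at 2 months, and of 5 or less at both 20 and 28 months. These 45 bins came from 4783931 bins on chromosomes 1 to 19, or 0.000941% of them, and from 973975 bins that reached 30 at 2 months, or 0.00462% of those. The highest of them held Mir21a, the gene of microRNA 21a, where the normalized count was 45.7 at 2 months and 0 in both older libraries. All 45 stood alone, with no 2 side by side.

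The series followed DNA methylation and muscle RNA with age in female C57BL/6J mice of 2, 20 and 28 months. Genomic DNA was taken from hindlimb muscle and from T cells of the spleen, which were purified on magnetic columns with a pan T-cell isolation kit. The DNA of 3 mice was combined per age and tissue, enriched for methylated fragments with a methyl-CpG-binding domain (MBD) and sequenced, so that each of the 6 libraries used here was 1 pool. The labels list a second muscle capture per age, but the 3 muscle columns do not name the round. Which capture they hold is therefore not known, and the captures were not compared. With 1 library per age and tissue, ages were not tested against each other. The muscle RNA libraries were not used. The 45 bins were picked from the same T-cell values that show the loss, so those values are a description.

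DNA methylation in mammals sits mostly on cytosines of CpG dinucleotides. An MBD protein holds double-stranded fragments through methylated CpGs, so the number of captured fragments over a site rises with both its methylation and its CpG number. Active enhancers and promoters are commonly poor in methylation, whereas gene bodies and intergenic DNA are commonly methylated. MicroRNA 21a is produced in many cell types, T cells included, from a hairpin at the end of the Vmp1 gene, which encodes a membrane protein needed for autophagy. A mature microRNA recognises its targets mainly through the seed near its 5′ end.

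The hairpin of microRNA 21a (92 bases, chr11:86584067-86584158, minus strand, GRCm38) lay wholly inside the bin with the highest 2-month value, chr11:86584001-86584500. Both mature strands are given from RefSeq, 5′ to 3′, because the whole hairpin lay in this bin, with the seed (bases 2 to 8) in capitals.
mmu-miR-21a-5p: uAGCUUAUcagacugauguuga
mmu-miR-21a-3p: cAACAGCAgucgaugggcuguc
The seed of mmu-miR-21a-5p occurred in 2 mature mouse microRNAs of the RefSeq table and that of mmu-miR-21a-3p in 1, itself.

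The central 300 bases of 8 of the 12 bins with the highest 2-month values are shown from GRCm38, in order of that value, with each CpG in capitals, since CpGs are what the capture reads. The other 4 lay in untranslated regions or on a chromosome from which no sequence is shown.
Gli2 intron, chr1:118939101-118939400, + strand: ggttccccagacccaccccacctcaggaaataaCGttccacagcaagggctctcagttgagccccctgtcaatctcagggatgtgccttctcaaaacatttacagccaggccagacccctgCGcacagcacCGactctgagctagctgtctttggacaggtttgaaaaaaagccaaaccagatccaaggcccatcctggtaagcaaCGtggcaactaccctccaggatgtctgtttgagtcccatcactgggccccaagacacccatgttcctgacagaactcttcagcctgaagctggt
upstream of Arid5b, chr10:68301101-68301400, + strand: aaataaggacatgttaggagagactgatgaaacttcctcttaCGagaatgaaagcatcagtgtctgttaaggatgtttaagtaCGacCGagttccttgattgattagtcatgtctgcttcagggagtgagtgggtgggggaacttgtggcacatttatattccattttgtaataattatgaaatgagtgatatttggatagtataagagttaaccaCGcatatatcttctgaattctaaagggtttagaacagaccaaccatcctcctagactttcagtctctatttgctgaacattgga
Trpm5 intron, chr7:143093101-143093400, + strand: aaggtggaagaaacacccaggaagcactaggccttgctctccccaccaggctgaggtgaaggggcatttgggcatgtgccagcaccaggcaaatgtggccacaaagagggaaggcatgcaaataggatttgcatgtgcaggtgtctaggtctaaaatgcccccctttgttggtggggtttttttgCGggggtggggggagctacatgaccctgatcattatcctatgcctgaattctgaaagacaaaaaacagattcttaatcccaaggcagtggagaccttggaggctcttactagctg
upstream of Tas2r131, chr6:132959101-132959400, + strand: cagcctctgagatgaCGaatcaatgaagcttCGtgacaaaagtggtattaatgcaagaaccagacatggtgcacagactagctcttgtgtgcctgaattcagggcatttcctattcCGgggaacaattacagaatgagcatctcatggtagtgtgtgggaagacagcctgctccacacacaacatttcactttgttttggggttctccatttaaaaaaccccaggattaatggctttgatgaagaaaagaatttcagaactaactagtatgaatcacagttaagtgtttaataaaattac
Ppp4r4 intron, chr12:103597601-103597900, + strand: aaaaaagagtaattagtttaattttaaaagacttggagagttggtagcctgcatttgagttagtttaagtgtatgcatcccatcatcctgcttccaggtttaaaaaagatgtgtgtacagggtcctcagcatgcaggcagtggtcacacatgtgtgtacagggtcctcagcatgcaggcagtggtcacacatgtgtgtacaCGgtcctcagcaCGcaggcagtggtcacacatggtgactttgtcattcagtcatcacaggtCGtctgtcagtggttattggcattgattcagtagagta
Fat3 intron, chr9:16112101-16112400, + strand: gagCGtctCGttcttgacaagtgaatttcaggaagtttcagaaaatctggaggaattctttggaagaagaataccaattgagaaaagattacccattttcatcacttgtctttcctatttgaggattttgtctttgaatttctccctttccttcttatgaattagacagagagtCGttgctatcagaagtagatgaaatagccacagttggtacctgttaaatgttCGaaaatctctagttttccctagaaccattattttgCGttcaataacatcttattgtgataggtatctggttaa
Saxo1 intron, chr4:86523601-86523900, + strand: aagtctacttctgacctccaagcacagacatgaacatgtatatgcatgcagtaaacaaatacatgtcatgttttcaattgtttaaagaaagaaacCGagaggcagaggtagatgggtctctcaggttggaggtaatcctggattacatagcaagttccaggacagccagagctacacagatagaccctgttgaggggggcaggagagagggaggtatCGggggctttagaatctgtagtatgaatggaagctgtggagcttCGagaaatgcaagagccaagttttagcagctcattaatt
repeat upstream of Sept7, chr9:25236101-25236400, + strand: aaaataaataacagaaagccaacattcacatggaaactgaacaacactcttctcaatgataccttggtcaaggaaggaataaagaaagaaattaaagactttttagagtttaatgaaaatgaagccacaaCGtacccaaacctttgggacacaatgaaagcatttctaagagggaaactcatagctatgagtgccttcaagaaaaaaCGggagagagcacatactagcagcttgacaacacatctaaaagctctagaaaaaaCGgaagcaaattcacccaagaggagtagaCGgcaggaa
These stretches held 1 to 5 CpGs each. The Trpm5 stretch had 1 CpG, and its whole bin 4. The stretch upstream of Sept7 was wholly repeat-masked, whereas the other 7 bins were masked over 7.2 to 26.4% of their length.

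A normalized count is the number of reads that overlap a bin, divided by 1 size factor per library. One read was worth 1.02, 1.22 and 1.32 in T cells of 2, 20 and 28 months, and 0.910, 0.842 and 0.637 in muscle of the same ages. The limits of the choice were thus at least 30 reads at 2 months, at most 4 reads at 20 months and at most 3 at 28 months. The libraries held 188758989 to 200456498 reads on bins in T cells and 135254786 to 141889499 in muscle. The highest value of an autosomal bin was 3.51e+07, 4.73e+07 and 4.72e+07 in T cells at 2, 20 and 28 months. In muscle it was 1.04e+07, 9.02e+06 and 2.70e+06. Such values are part of the sums over bins used for rescaling below, and sums without them were not computed. As a check of the tissue, 17 of 18 T-cell receptor and coreceptor genes had a lower mean over the gene body in T cells than in muscle at 2 months, but 3 of 18 at 28 months. All 18 were higher in T cells at 20 and at 28 months than at 2 months, and their gene-body mean of 30.4 at 20 months was above the 27.0 of muscle. By the gene-body mean under the deposited scaling, the check thus held in the 2-month library and not in the older libraries that define the loss. Of the other T-cell lists, 13 of 15 naive and memory genes, 12 of 22 lineage regulators, 11 of 19 effector and cytokine genes and 8 of 12 checkpoint genes were lower in T cells at 2 months, and 4, 3, 8 and 4 of them, in the same order, at 28 months. At the start bins of the 18 receptor and coreceptor genes the mean normalized count was 13.8, 33.9 and 44.9 in T cells at 2, 20 and 28 months. In muscle it was 41.5, 38.3 and 23.3. By the start bins T cells were thus still below muscle at 20 months, but above it at 28 months. All 16 skeletal muscle genes were higher in T cells than in muscle at 2 months under the deposited scaling. Rescaled to the same sum over bins, the T-cell values would be multiplied by 0.853, 0.697 and 0.681 at 2, 20 and 28 months. The muscle factors would be 1.38, 1.49 and 1.88. The comparisons between tissues were not repeated with these factors, which lower T cells against muscle. In the T-cell libraries the gene-body means were 26.1, 23.1 and 24.3 for 10 B-cell genes and 27.3, 32.8 and 35.8 for 11 myeloid genes. The share of the pools that was not T cells, or that was memory or naive T cells, was not tested as a part of any result.

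At 2 months the 45 bins lay just above the limit. Their normalized counts ran from 30.5 to 45.7 with a median of 32.5, and 14 of the 45 had exactly 30 reads. At 20 months the values ran from 0 to 4.87 with a median of 4.87, and 23 bins sat at the highest value allowed, 4 reads. At 28 months they ran from 0 to 3.97 with a median of 2.64. Just outside the limits, 18 bins met both old-age limits with a 2-month value of 29.4, 13 missed only the 20-month limit at 6.08, and 34 missed only the 28-month limit at 5.29. Of the bins that reached 30 at 2 months, 893 were at 5 or less at 20 months and 589 at 28 months.

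**Figure D1:**
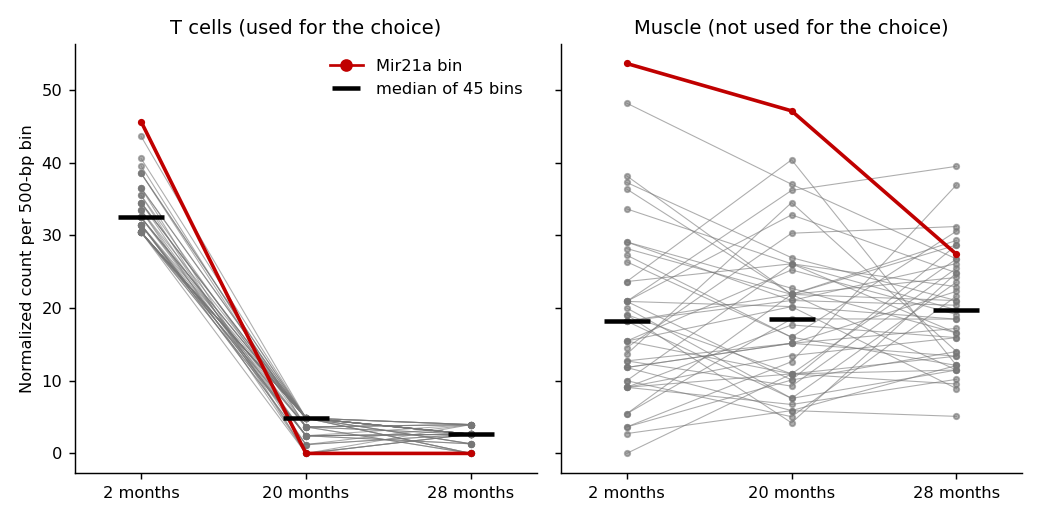
Normalized count of each of the 45 bins (lines) in the 3 T-cell libraries (left, used for the choice) and the 3 muscle libraries (right, not used), with medians as black bars and the Mir21a bin in red. The muscle medians were 18.2, 18.5 and 19.8 at 2, 20 and 28 months, above every value the same bins had in T cells at 20 and 28 months.

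The opposite choice, 5 or less at 2 months and 30 or more at both older ages, found 1001 bins, 0.0209% of autosomal bins. With the libraries rescaled to the same sum it found 459, and with limits on unscaled reads 720. The balance between both directions depended on the limits. With limits of 20 and 10 in place of 30 and 5, 13764 bins lost and 9276 gained, and with limits of 50 and 2, 0 lost and 71 gained. The set itself depended on the scaling and the limits together. The libraries were rescaled to the same sum over bins, the mean of all 6. This multiplied the T-cell values by 0.853, 0.697 and 0.681 at 2, 20 and 28 months, while the limits stayed at 30 and 5. The 2-month limit was thus stricter in effect, and the older limits were looser. After this rescaling 42 bins met the limits. Of these, 12 were among the 45, namely the 12 with the highest 2-month values. A rescaling among the T-cell libraries alone was not run. Those 12 are described first.

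The Mir21a bin had the largest 2-month value, 45 reads, with a 95% Poisson interval of 33.3 to 61.1 normalized counts. No read fell in it at 20 or 28 months. The upper limits of the same interval for a count of 0 were 4.49 normalized counts at 20 months and 4.88 at 28 months. In muscle the same bin stayed covered, with 53.7, 47.2 and 27.4 at 2, 20 and 28 months, the highest muscle value of the 45 at the first 2 ages. In T cells the bin before it went from 22.3 to 2.43 and 5.29, and the bin after it from 21.3 to 0 and 0, but reads that cross an edge are counted in both bins, so these values may in part be the same reads. The bins 2 to 5 away averaged 6.22, 4.11 and 0.991.

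**Figure D2:**
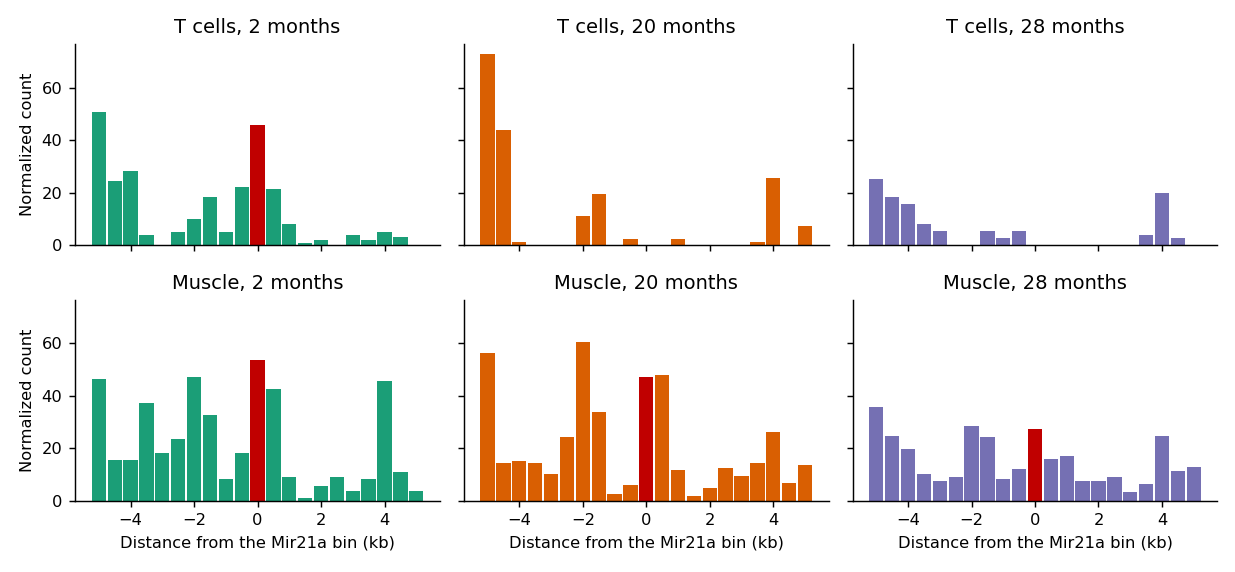
Normalized counts in the 21 bins of 500 bp around the Mir21a bin (red), by distance in kb, for the 6 libraries. In T cells the central bin fell from 45.7 to 0 and 0 with both neighbours, whereas in muscle it read 53.7, 47.2 and 27.4.

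Inside a protein-coding gene and within 2 kb of its start lay 2 of these bins. The bin chr1:130826501-130827000 was centred 66 bp from the start of Pigr, the receptor that carries polymeric immunoglobulins across epithelia, and was annotated as untranslated sequence. It read 38.6, 4.87 and 0 in T cells and 14.6, 30.3 and 31.2 in muscle at 2, 20 and 28 months. Muscle was thus higher at both older ages, while the T-cell value fell to no read. The next bin into the gene fell less in T cells, from 22.3 to 15.8 and 11.9, and the one after that read 47.7, 54.8 and 48.9. On the other side the neighbour went from 11.2 to 0 and 0, and the one beyond it read 2.03, 0 and 2.64. The bin chr7:143093001-143093500 was in an intron of Trpm5, a calcium-activated cation channel of taste and tuft cells, 1392 bp from its start. Its T-cell values were 39.6, 3.65 and 0 and its muscle values 9.10, 17.7 and 15.9. The neighbour on one side went from 20.3 to 9.73 and 1.32, and that on the other side had no read in any T-cell library.

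The other bins of the 12 lay in introns, in an untranslated region or between genes. An intron of Gli2, a transcription factor of Hedgehog signalling, held the bin chr1:118939001-118939500. It read 43.6, 4.87 and 2.64 in T cells and 36.4, 21.9 and 24.2 in muscle. A bin 22.5 kb upstream of Arid5b, which encodes a DNA-binding protein of the ARID family, was chr10:68301001-68301500, with 40.6, 4.87 and 3.97 in T cells and 13.6, 34.5 and 14.0 in muscle. An intron of Asxl3, a gene of the Polycomb-associated Asxl family, held a bin on chromosome 18 with 36.5, 4.87 and 3.97 in T cells and 28.2, 21.9 and 28.7 in muscle. Muscle kept 10 or more in all 3 bins at every age, with no common direction among them.

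The bin chr6:132959001-132959500, 1331 bp upstream of the bitter taste receptor gene Tas2r131, read 38.6, 4.87 and 2.64 in T cells and 5.46, 18.5 and 18.5 in muscle. In Ppp4r4, a regulatory subunit of protein phosphatase 4, the intronic bin chr12:103597501-103598000 read 38.6, 3.65 and 0 in T cells and 27.3, 16.0 and 30.6 in muscle. In the untranslated part of Tmem72, chr6:116680501-116681000 read 36.5, 0 and 2.64 in T cells and 33.7, 26.1 and 19.8 in muscle. These 3 differed in muscle, where the first was higher and the last lower at both older ages. Fat3, an atypical cadherin, held chr9:16112001-16112500, with 36.5, 4.87 and 2.64 in T cells and 38.2, 21.9 and 29.3 in muscle. Saxo1, a microtubule protein of cilia and flagella, held chr4:86523501-86524000, with 35.5, 3.65 and 3.97 in T cells and 12.7, 15.2 and 22.3 in muscle. The repeat-masked bin 16.2 kb upstream of the septin gene Sept7, chr9:25236001-25236500, read 35.5, 0 and 2.64 in T cells and 20.9, 36.2 and 39.5 in muscle. No 32-base word of this last bin was unique in the genome, so its reads could have come from other copies.

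The 8 bins that followed in order of the 2-month value had 32.5 to 34.5 at that age. 3 of them were in introns of Kif17 (a kinesin motor), Slc39a8 (a zinc transporter) and the uncharacterised gene Gm45904. Another, chr8:120832001-120832500, was in an intron of Gm20388, 95.9 kb from the start of Irf8, a transcription factor of myeloid and B cells. It had 14 CpGs, the most of the 45, and was low in muscle as well, at 2.73, 5.89 and 5.10 against 33.5, 0 and 2.64 in T cells. The other 4 were intergenic, with Cwc22, Col11a1, Slit2 and Lgalsl as the nearest protein-coding genes, 63.4 to 927.4 kb away. The Slit2 one was repeat-masked over 96.2% of its length.

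The remaining 25 bins were at 30.5 to 32.5 at 2 months. Like the 8 before them, they were below 30 at that age once the libraries had the same sum. Introns of Sgcd, Nrxn3, Eml4, Hspg2, Fam49a, Hhat, Gm12973, Ptprz1, Zfpm2 and St3gal1 held 10 of them, coding exons of Gsdma and Atf7ip2 held 2, and an exon of the non-coding gene D830032E09Rik held 1. The other 12 were intergenic. Of these, 3 were singled out after their values and nearest genes were seen, and none of the 3 genes is on a list used here. The bin chr8:84982001-84982500 was 3532 bp from the start of Junb, an AP-1 transcription factor, and held 12 CpGs with a GC content of 63.0%. It read 30.5, 4.87 and 2.64 in T cells and 48.2, 37.0 and 26.8 in muscle. The bin 15.3 kb upstream of Tank, a regulator of NF-κB and interferon signalling, chr2:61563001-61563500, read 31.5, 1.22 and 3.97 in T cells and 37.3, 26.9 and 21.0 in muscle. The bin 32001 bp upstream of Prkcb, a protein kinase C of lymphocytes, chr7:122256501-122257000, read 30.5, 4.87 and 2.64 in T cells and 15.5, 20.2 and 8.92 in muscle.

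Most of the 45 bins were in introns or between genes. The annotation placed 20 in introns, 19 between genes, 3 in untranslated regions, 2 in coding sequence and 1 in a non-coding exon. Inside genes were 26 of the 45 (57.8%), close to the 58.3% of bins with the same 2-month T-cell level, which are the 398709 autosomal bins between 30.5 and 45.7. Exons held 6 of the 45 (13.3%), against 14.0% at the same level and 9.85% over all autosomal bins. Of the bins that gained, 82.8% were inside genes. Within 1 kb of a protein-coding start was 1 of the 45 (2.22%), the Pigr bin, against 1.25% at the same level and 37.0% of the bins that gained. The median distance to such a start was 54.5 kb, with 47.8 kb at the same level, 72.5 kb over all autosomal bins and 2.80 kb for the bins that gained. By chromosome the counts ran from 0 on chromosomes 13, 14 and 19 to 6 on chromosome 3, too few per chromosome to compare.

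CpG numbers were lower in the 45 bins than in bins of the same 2-month level. The mean was 5.44 CpGs (SD over bins 2.08), against 6.41 at the same level, 4.25 over all autosomal bins and 24.8 in the bins that gained. The bins of the same level share the range of the 45 but were higher on average at 2 months (37.3 against 33.6), and all bins of 30 or more had a mean of 8.57 CpGs, so the part of that gap in level was not tested. There were 28 bins with 1 to 5 CpGs, or 62.2%, against 34.1% at the same level and 67.3% over all autosomal bins. Both bins with more than 10, at Gm20388 and near Junb, had a GC content over 60%, whereas the mean of the 45 was 44.2%. Repeats covered 22.4% of the bins on average, 28.7% at the same level and 33.5% over all autosomal bins, and 6 of the 45 were more than 50% masked. In 30 of the 45, every 32-base word was unique on the autosomes, the only chromosomes searched. In 3, under 50% of the words were unique there, these being the bins in Slc39a8, near Slit2 and near Sept7.

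**Figure D3:**
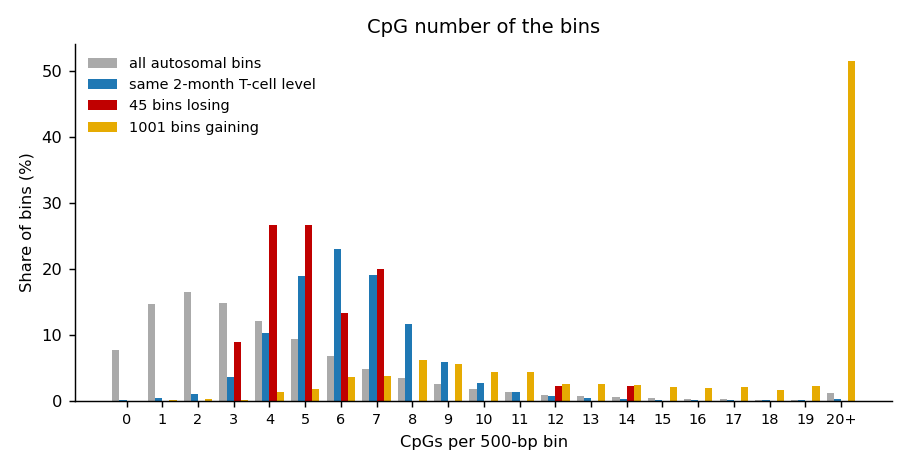
Share of bins (%) by the number of CpGs in 500 bp, for all autosomal bins (grey), bins of the same 2-month T-cell level (blue), the 45 bins (red) and the 1001 bins with the opposite pattern (yellow). The 45 bins peaked at 4 and 5 CpGs, against a median of 20 in the bins that gained.

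The bins around the 45 were not used for the choice. In the adjacent bins the mean T-cell value was 14.4, 10.4 and 10.5 at 2, 20 and 28 months, a mean log2 change of -0.88 and -0.92. The mean of the adjacent bins was lower at both older ages for 32 of the 45, or 71.1%, against 27.9% of bins at the same 2-month level, whose adjacent bins started higher, at 30.3. Both older ages were more than 2-fold lower in the mean of the adjacent bins for 12 of the 45, or 26.7%, against 1.28% of bins at the same 2-month level. These 12 included the bins at Mir21a, Fat3, Saxo1, Sgcd, Gsdma and Zfpm2 and those near Tas2r131, Junb and Tank. Several of these adjacent means were low from the start, such as 5.08 near Junb and 4.57 at Gsdma at 2 months, where few reads make a 2-fold change. A read that crosses a bin edge is counted in both bins, so adjacent bins are not independent of the choice. Over the bins 2 to 5 away the means were 18.7, 18.4 and 20.1 and the medians 15.2, 11.3 and 11.7. The mean log2 changes there were -0.16 and -0.09, against 0.05 and 0.10 at the same level, and 22 of the 45 (48.9%) were lower at both ages, against 23.9%. The bins 2 to 5 away from those of the same level also started higher, at a mean of 24.9, and the part of these starting levels in the shares was not tested. None of the 45 was more than 2-fold lower at both ages there, against 0.254% at the same level. For the bins that gained, the adjacent bins went from 8.95 to 32.3 and 44.3, and 246 of the 1001 lay in runs of at least 2. Joining members over a gap of 1 bin also joined none of the 45.

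**Figure D4:**
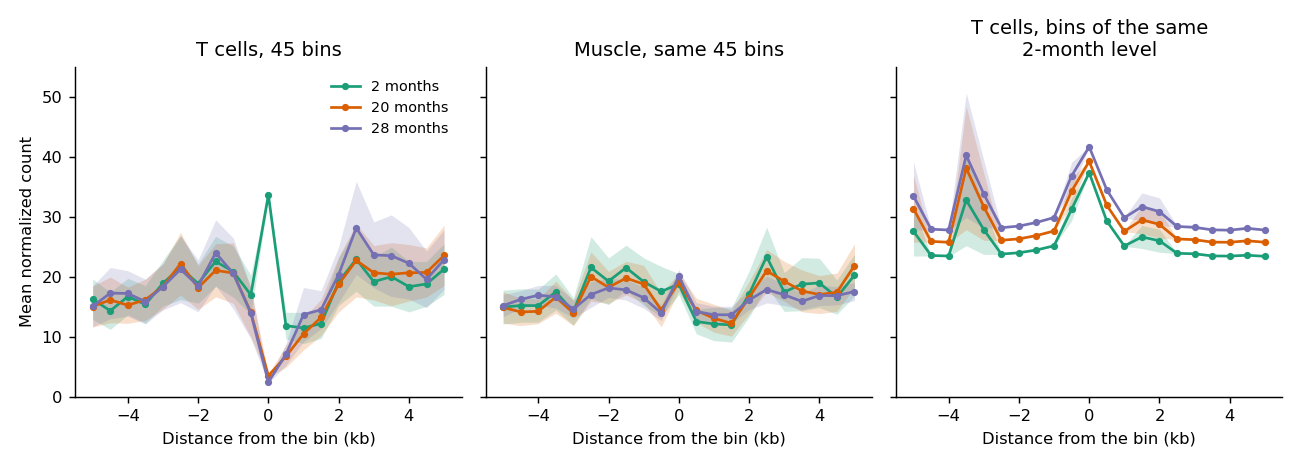
Mean normalized count by distance from the bin (kb), with 1 SE over bins as a band, for T cells at the 45 bins (left), muscle at the same bins (middle) and T cells at bins of the same 2-month level (right). In T cells the 45 bins went from a mean of 33.6 to 3.52 and 2.44 while the means over the bins 2 to 5 away were 18.7, 18.4 and 20.1, and in muscle the means were 18.8, 19.1 and 20.0.

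The muscle values were not used for the choice. Their mean over the 45 bins was 18.8 ± 11.8, 19.1 ± 10.2 and 20.0 ± 7.74 at 2, 20 and 28 months (SD over bins, n = 45), with ranges of 0 to 53.7, 4.21 to 47.2 and 5.10 to 39.5. In all 45 the muscle value was above the T-cell value at both 20 and 28 months, which the T-cell limits favour, and in 4 at 2 months. The count of 4 holds for the deposited scaling. At 2 months the same-sum factors were 0.853 for T cells and 1.38 for muscle, and the count was not repeated with them. Its share over other bins is not given here. More than 5 at every age was found in 40 of the 45. At the same T-cell level the lower quartiles of muscle were 23.7, 22.7 and 19.1 at 2, 20 and 28 months. More than 5 was thus usual at each age in those bins too. The same limits applied to muscle were met by 20 autosomal bins (0.000418%) and by none of the 45, of which 6 had the 30 or more at 2 months that the limits ask, so this 0 says little. The medians of 18.2, 18.5 and 19.8 lay between those of bins with the same T-cell level (32.8, 31.2 and 24.2) and those of all autosomal bins (8.19, 9.26 and 13.4).

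The muscle values moved in both directions with age. On the scale of log2(normalized count + 1), the mean change was 0.13 at 20 months and 0.29 at 28 months against 2 months, with SDs over bins of 1.00 and 0.956. The 28-month value depended on the scaling, and was 0.53 over the 42 bins found with libraries of the same sum. For bins of the same T-cell level the mean changes were -0.06 and -0.36, and for all autosomal bins 0.09 and 0.63. In the 28-month muscle library 0.640% of bins had no read, against 12.1% at 2 months and 10.3% at 20 months, so low bins as a whole were higher there. At 20 months, 23 of the 45 (51.1%) were higher and 22 lower than at 2 months. Higher at that age were 48.5% of all autosomal bins and 44.8% at the same T-cell level. At 28 months 29 (64.4%) were higher and 16 lower, against 66.1% and 26.1% higher. The share of the 45 was thus near that of all autosomal bins at both ages. The 6 bins with 30 or more in muscle at 2 months, those at Mir21a, Gli2, Tmem72 and Fat3 and near Tank and Junb, were lower at both older ages. A choice on a high 2-month value favours this. Of the 398709 bins at the same T-cell level, 220001 were lower in muscle at 20 months and 294531 at 28 months. The share among all bins with 30 or more in muscle is not given here.

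More than 2-fold higher in muscle at 20 months were 8 of the 45, against 14.3% of all autosomal bins with a muscle read and 3.56% at the same T-cell level. More than 2-fold lower at that age were 3, against 9.64% and 4.43%. At 28 months 7 were more than 2-fold higher, against 36.1% and 2.6%, and 1 was more than 2-fold lower, against 7.78% and 14.6%. The 1 was the non-coding exon of D830032E09Rik, at 26.4, 16.0 and 12.1. No bin was more than 2-fold lower at both ages. The 5 that were more than 2-fold higher at both were those in Pigr, Fam49a and Hhat and those near Tas2r131 and Kcnmb2. For both ages together no share over other bins is given here, so these counts cannot be set against a background. The Fam49a bin had no muscle read at 2 months and 10.9 and 9.56 at 20 and 28 months, while the Hhat bin went from 3.64 to 12.6 and 37.0.

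**Figure D5:**
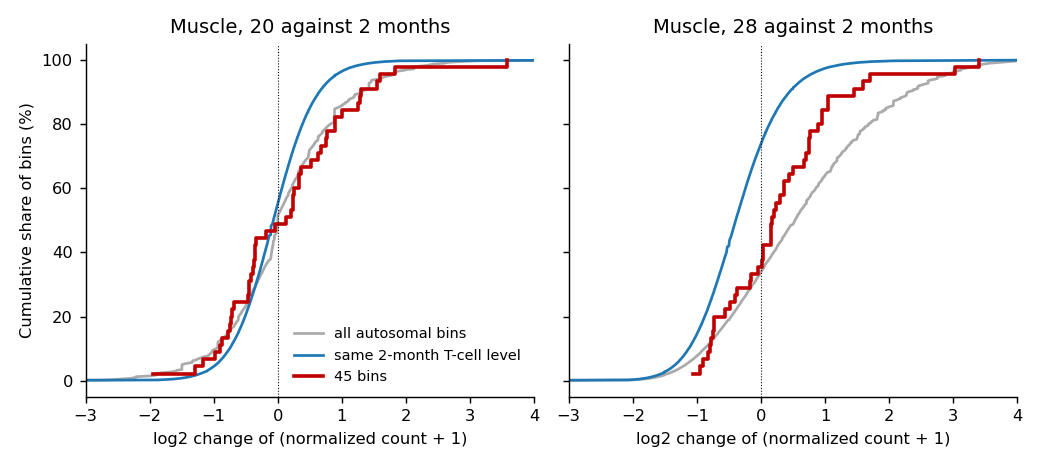
Cumulative share of bins (%) by the muscle log2 change at 20 (left) and 28 months (right) against 2 months, for the 45 bins (red), bins of the same 2-month T-cell level (blue) and all autosomal bins (grey). The 45 bins spread to both sides of 0, with means of 0.13 and 0.29 under the deposited scaling.

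The lists of T-cell genes held none of these bins. A bin of the 45 lay inside or within 5 kb of 34 of 51229 autosomal genes (0.0664%), 27 of them protein-coding. None of 11 lists had such a gene. The lists covered T-cell receptors and coreceptors (18 genes), naive and memory T-cell genes (15), lineage regulators (22), effector molecules and cytokines (19), checkpoint and regulatory genes (12), B-cell genes (10), myeloid genes (11), skeletal muscle genes (16), DNA methylation and demethylation genes (14), imprinted genes (26) and antigen receptor loci (7). At a share of 0.0664%, lists of this size would hold few or none, so the count of 0 says little about them. The nearest listed genes were the imprinted RNA Kcnq1ot1, 109958 bp from a bin, and Ikzf3, a lymphoid transcription factor, 129970 bp away.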

How the data were processed

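MBD-seq values of 3 T-cell and 3 muscle libraries were used, 1 pool of 3 mice per age. The authors trimmed reads with Trim Galore, aligned them to mm10 with Bowtie2, counted them in 500-bp bins with bedtools and divided by DESeq2 size factors. The deposited signal values are therefore normalized counts. All nonzero values (100%) were whole multiples of 1 step per library within 0.1 read, which gave back the reads. Per-read intervals are exact Poisson intervals at 95% and cover counting error only. They treat reads as independent, which PCR copies and the mates of a pair are not, so they are too narrow where such reads were counted. For 30 reads in 2-month T cells the interval ran from 20.5 to 43.5 normalized counts.

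Bins were computed on with Python 3.11.15, numpy 2.4.6, pandas 2.3.3 and scipy 1.17.1. Log2 changes used a pseudocount of 1. Genes came from GENCODE vM21, and CpGs, GC content and repeat masking from the GRCm38 sequence. Bowtie2 by default places a read that matches several sites at one of them. The muscle columns do not name the round of capture, so none was assigned, and 0 per-sample columns were left out. The regions, gene lists and limits were chosen with earlier results of these data known. Regions named by rule were the 20 with the highest 2-month value, any within 1 kb of a protein-coding start and any within 5 kb of a listed gene. Finding bins, counting runs and recovering the value of 1 read were tested on simulated data, whereas the summaries of changes were not. Alternatives were other limits, scalings, repeat filters, pseudocounts and run definitions.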

Additional observations from a re-analysis of the deposited data

How the results depend on the processing

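The number of bins was 45 as reported, 42 with libraries rescaled to the same sum (12 of them shared with the 45), 142 with limits on unscaled reads, 13764 with limits of 20 and 10, 0 with limits of 50 and 2, and 39 when bins at least 50% repeat-masked were left out. The limits on unscaled reads and the looser limits kept all 45. With the same sum the T-cell values were lowered while the limits stayed, so the limits changed in effect. The limits of 50 and 2 left no bin, so no other value was computed under them. The median muscle value at 2 months, 18.2, was 14.6 with looser limits, 21.4 with the same sum and 15.5 without bins at least 50% repeat-masked. The mean muscle log2 change at 28 months, 0.29, was 0.53 with the same sum. The mean repeat-masked share, 22.4%, was 34.0% with looser limits. The cause of these shifts was not tested. The shares in runs, inside genes and lost in muscle too, and the mean muscle change at 20 months, moved by less than their error under the alternatives run, and no direction turned. The alternatives for the bins that gained, and the list of bins kept with the same sum, were chosen after seeing the data. With 1 pool per age, the spread between mice was not measured, and many of the bins sat on a limit, 14 of them at 30 reads at 2 months and 23 at 4 reads at 20 months.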
